A study of Mus musculus with 12 samples.

Results

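The comparison set neural progenitor cells in which transcription of *Sox1* had been induced, called NPC(+), against neural progenitor cells at baseline, called NPC. It asked what else differed between these cells across every gene they express, grouped by what the genes do. Its 6 libraries, 3 of NPC and 3 of NPC(+), were found by their column names in the count table and are 6 of the 12 libraries of the series. The other 6 libraries, 3 labelled NSC and 3 labelled NR, served only to estimate the spread between replicates.

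Every group is given as strain C57BL/6 by the labels and came from mouse embryonic stem cells that carry GFP in a single copy of *Sox1*, so that a green cell is one transcribing the gene. By the methods of the study, the NPC lines stably expressed dCas9-VP64, a Cas9 that binds DNA without cutting it and is joined to an activator of transcription, and were grown from single cells. NPC(+) cells had also received guide RNAs against the *Sox1* promoter and were sorted for GFP. The labels call NPC not sorted, whereas the text of the study describes sorting for cells with and without induction, and whether the NPC libraries held guide RNAs is not stated. Sorting, guide RNAs and *Sox1* induction therefore cannot be told apart. The replicates came from different days and different clonal lines, and which line gave which library is not stated, so a difference between lines cannot be told apart from the induction either.

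As background, *Sox1* belongs with *Sox2* and *Sox3* to a family of HMG-box transcription factors that keep cells of the early neural tube dividing and undifferentiated. Cultured NPCs have left that stage, express *Sox2* with little *Sox1* and give mainly glia. What a progenitor does next is set by other transcription factors, by signals such as Notch, Wnt, FGF and BMP, by the supply of lipids and amino acids, and by adhesion molecules that hold an epithelium together.

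NPC replicates 1 to 3 held 18351483, 7434718 and 4939268 counts, and NPC(+) replicates 1 to 3 held 3407066, 6315574 and 5875864. Levels are given as counts scaled to library size (CPM), which grow with the length of a transcript, so a level is compared between groups for the same gene. Where genes are ranked by CPM, or 1 is called the most abundant of a list, this is by CPM (for lists, its mean over the 6 libraries) and says nothing about molecules. A floor of 3 counts per library equals on average 0.397 CPM in NPC and 0.62 CPM in NPC(+). Intervals and floors cover counting error only, since the reads carry no molecular identifiers. In bulk RNA, fewer cells that express a gene cannot be told apart from less of its RNA in each cell.

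The labelled cell type was checked against markers of neural progenitors, and each of them had at least 33.2 CPM in all 6 libraries. *Nes*, which encodes the intermediate filament nestin, measured 72.5, 98.8 and 91.4 CPM in NPC and 239, 227 and 222 CPM in NPC(+). Of the other markers, those lower in NPC(+) included *Sox2*, *Fabp7*, *Slc1a3*, *Pax6*, *Olig2* and *Sox9*, while *Vim* and *Hes5* did not pass the test. *Vim*, another intermediate filament, had a log2 fold change of 0.30 ± 0.15 (SE, adjusted p = 0.103 by the quasi-likelihood (QL) test of edgeR after Benjamini-Hochberg (BH) adjustment). *Hes5*, a Notch target, had one of 0.53 ± 0.31 (adjusted p = 0.165 by edgeR QL with BH), with no overlap between the groups. Both passed in a fit of only the 6 libraries, with an adjusted p of 1.26e-04 and 3.16e-05 (edgeR QL with BH). The cells of both groups thus carried the RNA of neural progenitors, with most of these markers at a different level.

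*Sox1* (ENSMUSG00000096014, GRCm38 chromosome 8 from 12395295 to 12400126) was the gene targeted. Its level was 4.64, 5.86 and 5.28 CPM in NPC and 20.5, 21.2 and 21.9 CPM in NPC(+), so the groups did not overlap. The NPC values lay above the floor, so the gene was low in these libraries and not silent. The log2 fold change was 2.04 ± 0.44 (SE, adjusted p = 0.00173 by edgeR QL with BH, and 1.31e-10 to 0.0145 across the 17 alternatives). NPC(+) cells were sorted for GFP from this gene, so the sort set the direction and the p value is no separate evidence of it. No exon of another gene with a count in the 6 libraries overlaps *Sox1*. The sequence around its start, from RefSeq for GRCm38.p6 on the plus strand at chr8:12395269-12395568, is shown because the guide RNAs were aimed at the promoter of this gene and its methylation was a subject of the study. RefSeq places the start 250 bases into this window, whereas the gene as given above begins near the window's left end, so most of the window lies inside that gene model. Which start the guide RNAs were designed from is not stated. Capitals mark its 37 CpG dinucleotides, which are the sites that DNA methylation acts on.
Sox1: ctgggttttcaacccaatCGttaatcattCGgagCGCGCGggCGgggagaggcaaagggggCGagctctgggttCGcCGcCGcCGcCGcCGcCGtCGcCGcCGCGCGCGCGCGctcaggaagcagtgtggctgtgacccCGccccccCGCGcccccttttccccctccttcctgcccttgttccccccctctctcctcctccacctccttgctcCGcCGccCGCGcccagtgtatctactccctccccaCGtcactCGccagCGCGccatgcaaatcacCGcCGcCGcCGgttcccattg
Each of the 9106 tested genes with a RefSeq promoter window was taken by its window richest in CpG, and the median was 23 CpG. For genes more than 4-fold higher in NPC(+) the median was 19 CpG over 229 genes, and for those more than 4-fold lower it was 15 CpG over 144 genes. The rest of the 312 higher and 185 lower genes had no window and were left out. At least 10 CpG were found for 90.4% of all these genes, 70.7% of the higher genes and 70.1% of the lower genes. Strongly changed genes of either direction thus had CpG-poor starts more often than the genes tested as a whole, and *Sox1* was not among the CpG-poor ones.

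Of 12045 genes tested, 3622 (30.1%) were higher and 3306 (27.4%) lower in NPC(+) (edgeR QL, BH-adjusted p below 0.1 with p below 0.05). P values reflect the spread between these 6 samples and those of the other groups, not a population of lines. More than 2-fold higher were 1077 genes (8.94%) and more than 2-fold lower 781 (6.48%), while 312 (2.59%) passed 4-fold upward and 185 (1.54%) downward. The median log2 fold change over all genes tested was 0.03 and the median size of the change was 0.39, so the shift was broad and mostly small. Among the genes called higher, 3510 (96.9%) had all NPC(+) values above all NPC values, and among those called lower 3208 (97%) had them all below, against 7873 (65.4%) not overlapping over all genes tested.

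The called genes were also summed by CPM, as percentages of the nominal CPM total. Genes called higher summed to 23.7%, 22.9% and 22.7% in NPC and 35.5%, 35.8% and 35.1% in NPC(+). Genes called lower summed to 42.4%, 40.5% and 40.2% in NPC and 26.2%, 26.2% and 25.9% in NPC(+). The TMM factors were 0.9539, 0.9895 and 0.9994 in NPC and 1.007, 0.9971 and 1.015 in NPC(+). The CPM of a library therefore do not sum exactly to that total, and these are not exact shares. Whether falls or rises weighed more as shares was not tested. The steepest fall in CPM of a single gene was that of *Ckb*, the brain creatine kinase that buffers ATP, which fell from 13275, 12297 and 12307 CPM to 4296, 4233 and 4181 CPM. Among genes called more than 2-fold different, the next falls by CPM were those of *Slc7a5*, *Slc1a3*, *Gpm6b* and *Hspa9*, and the steepest rises were those of *Ppia*, *Txn1*, *Hmgcs1*, *Sqle* and *Trp53i11*. *Ppia*, the prolyl isomerase cyclophilin A, went from 1014, 845 and 857 CPM to 2234, 2167 and 2219 CPM, and whether reads of its many processed copies were counted with it was not tested.

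The 6 libraries lay in their groups by principal component and by correlation. The first principal component of their log2 CPM carried 85.7% of the variance and had the 3 NPC libraries on one side and the 3 NPC(+) libraries on the other. Across genes, which are not independent replicates, Pearson's r of log2 CPM was 0.988 to 0.991 within a group and 0.907 to 0.915 between groups. By chi-square per degree of freedom between counts, NPC replicate 1 stood further from its group, at 7.57 and 5.02 against replicates 2 and 3. The value was 1.7 between NPC replicates 2 and 3 and 1.56 to 2.16 within NPC(+). NPC replicate 1 was also the deepest of the 6 libraries, and the part of depth was not tested. Biological variation between replicates (edgeR's coefficient) came to 7.74% in NPC and 4.11% in NPC(+), against 14.86% and 16.68% in the libraries labelled NSC and NR. A fit of only the 6 libraries called 4076 genes higher and 3867 lower.

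By fitted log2 fold change, among genes of at least 20 CPM in the higher group, the 10 steepest rises were those of *Cym*, *S100a11*, *Nnat*, *Hoxc9*, *Gimap6*, *Upp1*, *Trim9*, *1500015O10Rik*, *Cavin2* and *Htr3a*. *S100a11*, a small calcium-binding protein, had 3.61, 3 and 4.06 CPM in NPC and 169, 164 and 172 CPM in NPC(+). *Upp1*, which splits uridine for its sugar, rose from 1.09, 1.77 and 1.22 CPM to 31.6, 30.9 and 34.3 CPM. *Trim9*, a brain ubiquitin ligase, rose from 2.81, 3 and 4.06 CPM to 62.6, 66.6 and 61.8 CPM. These levels went from a trace to a mid-range level in all 3 NPC(+) libraries. For *Cym*, the milk-clotting protease chymosin, NPC held at most 2 counts per library, and the ratio was 1475 with a 95% counting interval of 504 to 7156.

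The 10 steepest falls were those of *Hoxa10*, *Spock2*, *Mmd2*, *Ier3*, *Fzd9*, *P2rx3*, *Cdkn1c*, *Trib3*, *Ceacam1* and *Ppp1r16b*. *Spock2*, a matrix proteoglycan, had 20.2, 24.8 and 26 CPM in NPC and at most 1 count in an NPC(+) library, a ratio of 174 with a 95% counting interval of 48 to 1441. *P2rx3*, an ATP-gated ion channel, fell from 28.3, 23.7 and 23.8 CPM to 0.292, 0.478 and 1.35 CPM. *Ceacam1*, a cell adhesion receptor, fell from 24, 19.2 and 19.7 CPM to 1.17, 0.637 and 0.505 CPM. These values went from a clear level to near the floor in the NPC(+) libraries, while *Trib3* kept at least 14 CPM.

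**Figure D1:**
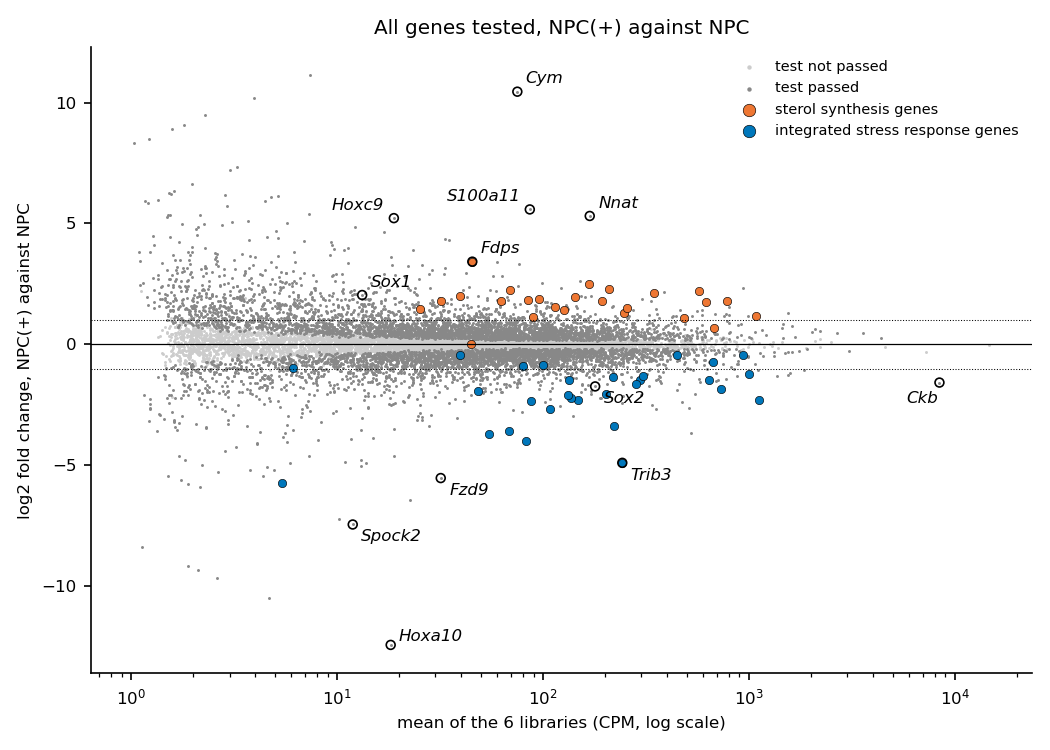
Each point is a gene tested, with its mean CPM over the 6 libraries on a log axis and its fitted log2 fold change of NPC(+) against NPC on the vertical axis, darker where the test was passed and coloured for the sterol synthesis and integrated stress response lists. Dotted lines mark 2-fold, and the fitted value of a gene with a group near 0 counts is no measure of its size.

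By class of gene, 406 long noncoding RNAs were tested, of which 125 were higher and 76 lower, with a median log2 fold change of 0.24. More than 2-fold higher were 80 of them and more than 2-fold lower 35. Of 11138 protein-coding genes 3401 were higher and 3147 lower, with a median of 0.02. Pseudogenes had 62 higher and 69 lower of 359 tested.

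The functions were read from 69 gene lists with 1796 genes tested, and a list is described by its counts beside the shares over all genes tested, 30.1% higher and 27.4% lower. In 10 lists of transcription factors 88 of 436 genes tested (20.2%) were higher and 126 (28.9%) lower. The zinc finger list carries that low share of higher genes, since 42 of 129 (32.6%) were higher and 38 (29.5%) lower in the other lists of factors. In 13 lists of signalling genes 88 of 271 (32.5%) were higher and 66 (24.4%) lower. In 15 lists of metabolic genes 183 of 551 (33.2%) were higher and 200 (36.3%) lower. In 13 lists of adhesion and matrix genes 72 of 223 (32.3%) were higher and 55 (24.7%) lower, with a median log2 fold change of 0.25. Most of these shares lie near those of all genes, so what follows is told by list and by gene. A list median that changed sign in any of the 17 alternatives is followed by its range over them. A list count that moved by more than 1.5 times with a library left out is followed by its range over the 6 such fits, marked LOO.

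**Figure D2:**
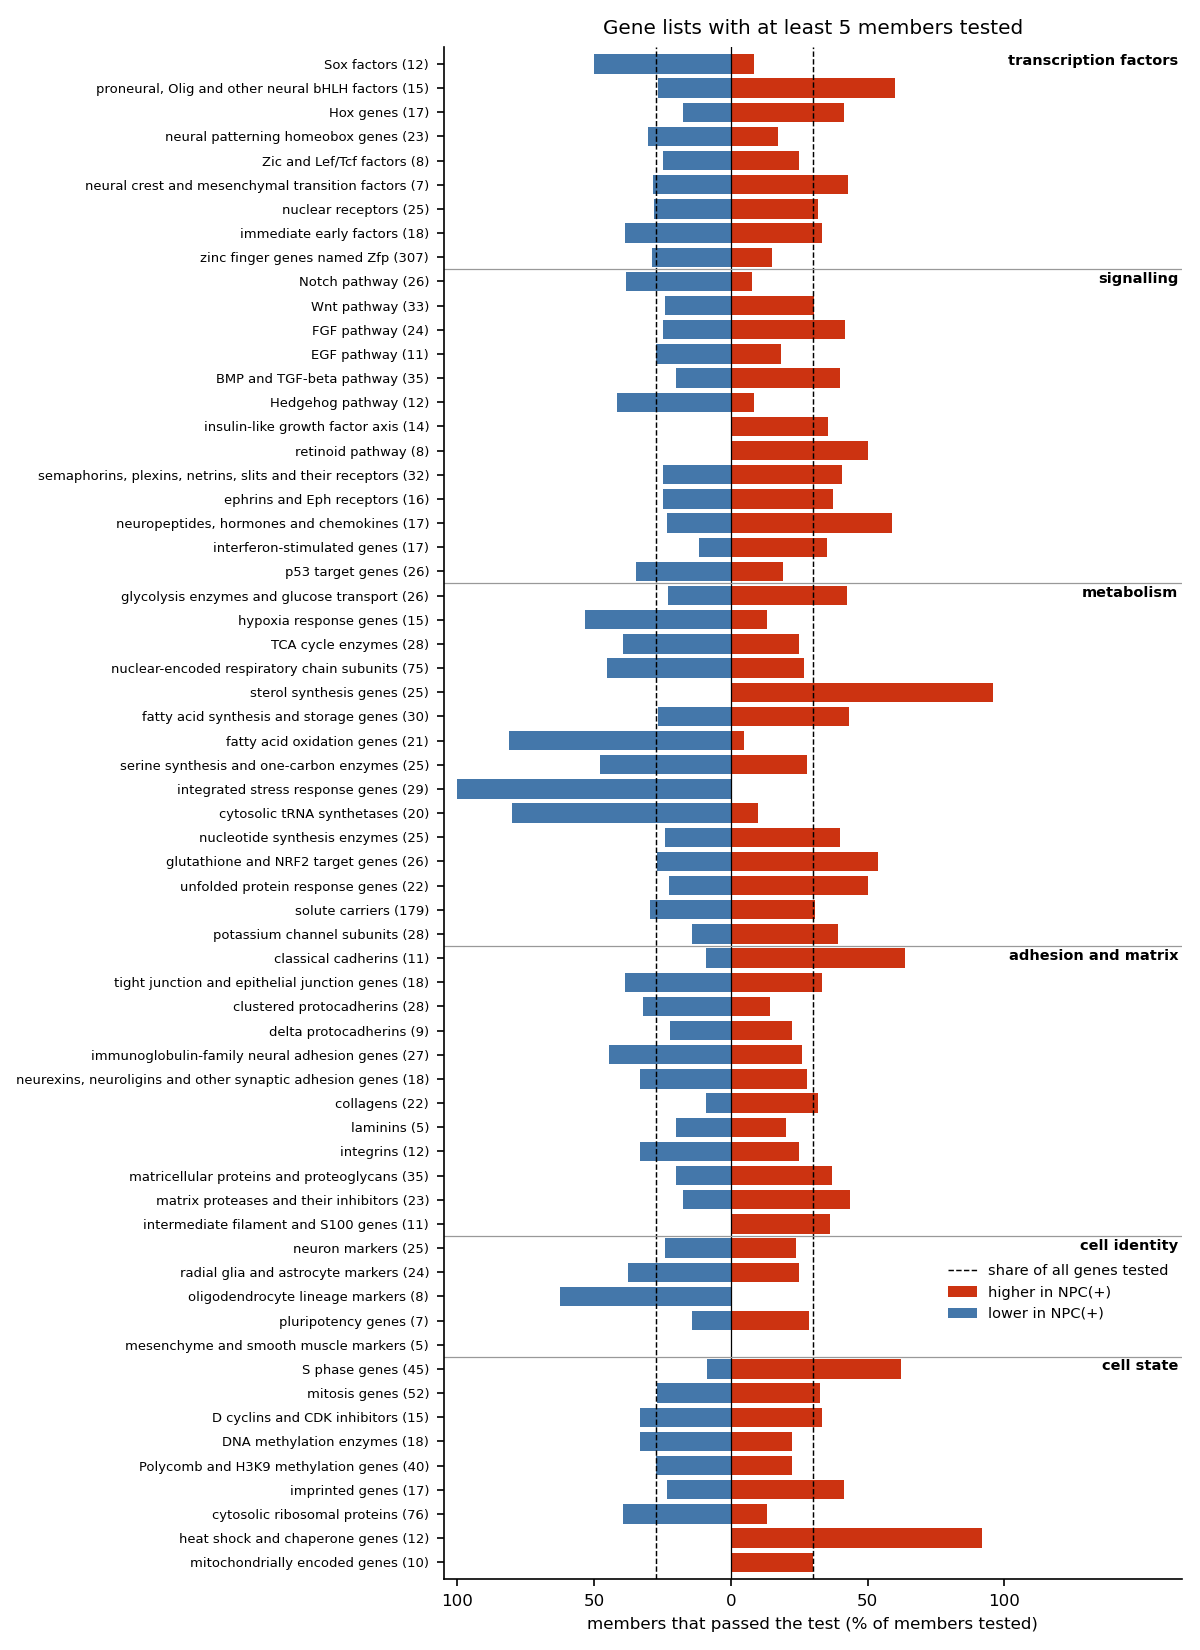
Bars give, for each list with at least 5 genes tested, the percent of its tested genes that were higher (right) or lower (left) in NPC(+), with the number tested in brackets, and dashed lines give the shares over all genes tested. The integrated stress response list reaches 100% lower, the sterol synthesis list 96% higher and the heat shock list 91.7% higher.

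Among 12 Sox factors tested, *Sox1* alone was higher and 6 were lower, with a median log2 fold change of -0.51. Its closest relatives went the other way. *Sox2*, which holds neural progenitors in their undifferentiated state, measured 244, 301 and 283 CPM in NPC and 81.9, 77.9 and 87.3 CPM in NPC(+), a log2 fold change of -1.74 ± 0.11 (SE). *Sox3*, the remaining member of the subfamily, measured 34.2, 60.5 and 49.4 CPM in NPC and 27.2, 18.5 and 20 CPM in NPC(+). *Sox1* thus rose while both of its closest relatives fell.

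*Sox9*, a factor of gliogenesis, fell from 193, 235 and 255 CPM to 94.8, 93.5 and 95.4 CPM. *Sox8*, its relative in oligodendrocyte precursors, fell from 339, 340 and 330 CPM to 154, 147 and 130 CPM. *Sox21*, which opposes *Sox2* at shared targets, fell from 59.1, 70.7 and 65.8 CPM to 36.9, 36.2 and 31.3 CPM. *Sox11*, a factor of immature neurons, had a log2 fold change of -0.63 ± 0.22 (SE), which missed the threshold without NPC(+) replicate 1 (-0.55). *Sox3*, *Sox11* and *Sox21* were picked out after their values were seen.

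In the list of proneural, Olig and other neural bHLH factors, 9 of 15 tested were higher and 4 lower, with a median of 0.54. The Id genes encode proteins that bind bHLH factors and keep them off DNA. *Id3* rose from 44.2, 39.3 and 42.7 CPM to 261, 251 and 265 CPM (log2 fold change 2.62 ± 0.15, SE). *Id4* rose from 5.61, 6.54 and 4.67 CPM to 17.3, 14.3 and 15.7 CPM. *Olig2*, the factor that specifies oligodendrocyte precursors, fell from 624, 711 and 655 CPM to 336, 344 and 322 CPM. Both Olig genes lie on chromosome 16, where the median gene had a log2 fold change of -0.36. Relative to that median the fall of *Olig1* (-0.30 ± 0.09, SE) changes sign to 0.07, and the part of the chromosome in it was not tested. The circadian repressors *Bhlhe40* and *Bhlhe41* moved apart, at -1.24 ± 0.19 and 1.62 ± 0.26 (SE).

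Hox genes record position along the body axis, and 17 of 39 had enough counts to be tested, with 7 higher and 3 lower and a median of 0.36 (range -0.01 to 0.48). The rises were those of *Hoxb4*, *Hoxb5*, *Hoxb7*, *Hoxb8*, *Hoxb9*, *Hoxc9* and *Hoxc13*, all of the B and C clusters. *Hoxb9* had 0.687, 0.545 and 1.22 CPM in NPC and 10.5, 9.4 and 8.58 CPM in NPC(+). *Hoxc9* had 0.916, 1.64 and 0.203 CPM in NPC and 39.2, 33.3 and 37.9 CPM in NPC(+). *Hoxb7* had 2.81, 2.32 and 1.22 CPM in NPC and 16.7, 17.5 and 16.5 CPM in NPC(+). *Hoxc13*, the most posterior of those that rose, had 0, 1 and 0 counts in NPC and 18, 42 and 45 in NPC(+), a ratio of 200 with a 95% counting interval of 35 to 7956.

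The falls were those of *Hoxa10*, *Hoxa5* and *Hoxd8*, all of the A and D clusters. *Hoxa10* had 39.3, 34.2 and 35.8 CPM in NPC and 0 counts in each NPC(+) library, at least 58.7-fold lower. *Hoxd8* fell from 34.2, 31.4 and 27.8 CPM to 16.7, 16.7 and 15 CPM. *Hoxa5* fell less, from 47.5, 41.4 and 47.7 CPM to 27.5, 29.2 and 33 CPM. Genes of a cluster can share exons with antisense transcripts, as *Hoxb5* does with *Hoxb5os*, and how such reads were assigned is not given. *Hoxb4*, *Hoxb5*, *Hoxb7* and *Hoxb8* were picked out after their values were seen.

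Homeobox genes of regional patterning gave 4 higher (LOO 2 to 4) and 7 lower of 23 tested, with a median of -0.04 (range -0.35 to 0.05). *Meis2*, a partner of Hox and Pax proteins, fell from 35.3, 39.3 and 37.2 CPM to 11.7, 14.5 and 16 CPM, and its relative *Meis1* had a log2 fold change of -0.81 ± 0.25 (SE). *Pax6*, which acts in neurogenic progenitors, fell from 55.7, 59.2 and 54.2 CPM to 35.1, 34.4 and 33.2 CPM. *Nkx2-4*, a gene of the ventral forebrain, had 0 counts in NPC and 3.8, 3.66 and 3.37 CPM in NPC(+), at least 9.1-fold higher. *Six3*, an anterior forebrain factor, had a log2 fold change of 1.64 ± 0.54 (SE) at no more than 2.07 CPM. Zic and Lef/Tcf factors gave 2 higher (LOO 0 to 1) and 2 lower of 8, and the falls were those of *Tcf7l1* and *Tcf7l2*, at -0.48 ± 0.13 and -0.53 ± 0.13 (SE).

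Of 4 NFI factors, which promote the change to glial fate, 2 were higher (LOO 0 to 2), *Nfia* at 0.66 ± 0.25 and *Nfic* at 0.78 ± 0.29 (SE). Neither passed without NPC replicate 1 (0.65 and 0.68) or without NPC(+) replicate 3 (0.61 and 0.71). Factors of the neural crest and of the epithelial to mesenchymal transition gave 3 higher and 2 lower (LOO 0 to 1) of 7, with a median of -0.03 (range -0.12 to 0.20) that becomes 0.20 relative to the chromosome medians. *Snai2*, a repressor of cadherins, had at most 2 counts per NPC library and 6.43, 5.89 and 4.88 CPM in NPC(+), a ratio of 55.7 with a 95% counting interval of 18.5 to 275. *Prrx2*, a mesenchymal homeobox gene, rose from 3.95, 6.27 and 3.66 CPM to 17.3, 15.8 and 16 CPM.

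Nuclear receptors gave 8 higher and 7 lower of 25, with a median of -0.18 (range -0.27 to 0.14). *Nr4a2*, which acts in dopamine neurons, rose from 4.64, 5.04 and 6.1 CPM to 15.2, 13.5 and 13.3 CPM. *Nr2e1*, also called Tlx, a repressor of transcription that maintains adult neural stem cells, fell from 5.9, 7.09 and 5.08 CPM to 0.877, 2.39 and 1.35 CPM. Immediate early factors, which respond to stimulation within minutes, gave 6 higher and 7 lower of 18, with a median of 0.09 (range -0.03 to 0.23) that becomes -0.03 relative to the chromosome medians. *Klf4* fell from 26.9, 32.7 and 38 CPM to 4.97, 6.53 and 6.06 CPM, while its relative *Klf2* rose from 7.5, 7.22 and 7.52 CPM to 20.2, 25.5 and 20.4 CPM. *Myc*, which raises growth and ribosome production, was picked out after its values were seen. It fell from 727, 897 and 886 CPM to 311, 321 and 297 CPM (log2 fold change -1.43 ± 0.14, SE). Zinc finger genes named Zfp, many of them repressors of retroelements, gave 46 higher (15%) and 88 lower (28.7%) of 307, with a median of -0.11. *Zfp687*, on chromosome 3, rose from 52.5, 56.8 and 52 CPM to 149, 159 and 167 CPM, and *Zfp105* fell from 38.1, 34.6 and 35.8 CPM to 9.65, 7.01 and 9.26 CPM.

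**Figure D3:**
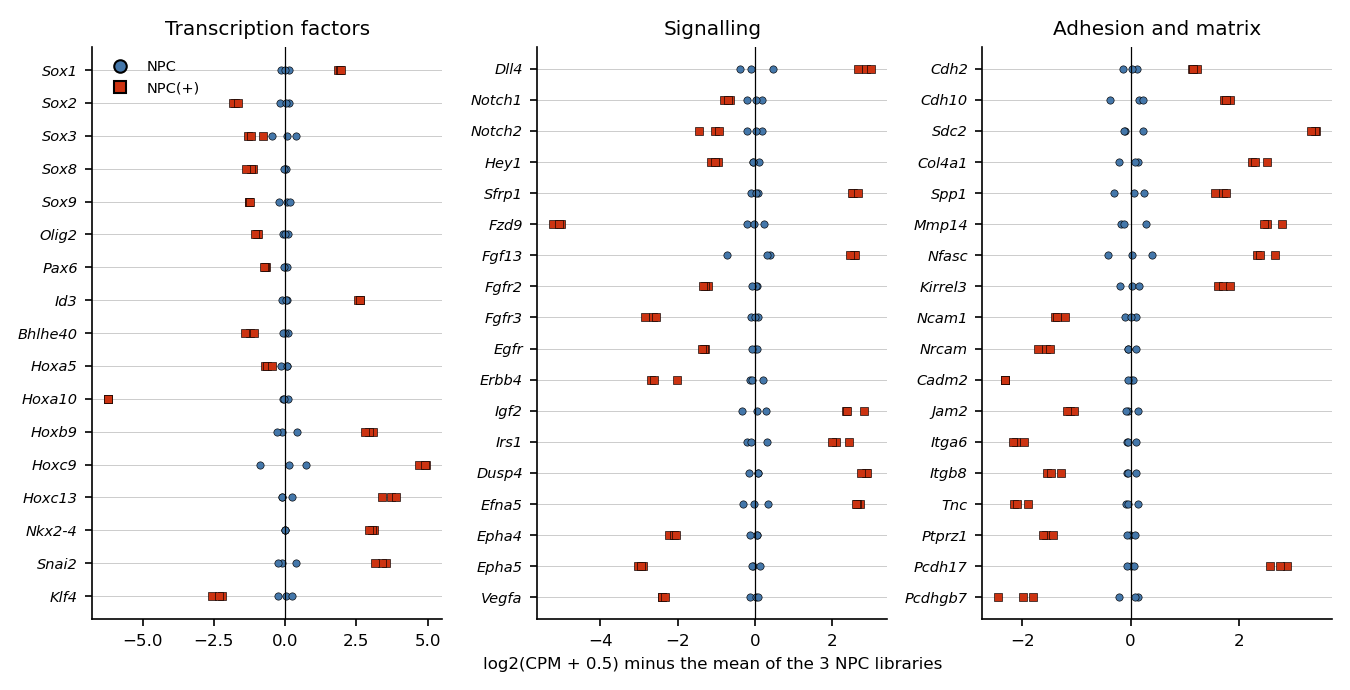
Points give log2(CPM + 0.5) of each library minus the mean of the 3 NPC libraries for chosen transcription factors, signalling genes and adhesion genes, NPC as circles and NPC(+) as squares. *Sox1* lies to the right and *Sox2*, *Sox8* and *Sox9* to the left, and the Hox genes lie on both sides.

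In the Notch pathway, by which neighbouring cells keep each other in the progenitor state, 2 of 26 genes tested were higher (7.69%, LOO 1 to 2) and 10 lower (38.5%), with a median of -0.30. *Notch2* fell from 58, 75.7 and 68.5 CPM to 24.3, 32.3 and 35 CPM. *Notch1* went from 277, 363 and 327 CPM to 185, 205 and 197 CPM (log2 fold change -0.72 ± 0.27, SE), and it did not pass without NPC replicate 2 (-0.62) or without NPC(+) replicate 1 (-0.68). *Jag1*, a ligand picked out after its values were seen, fell from 247, 295 and 245 CPM to 139, 188 and 151 CPM. *Hey1*, a target gene, fell from 76.3, 69.1 and 68.5 CPM to 36.6, 32 and 34.8 CPM. *Dll4*, another ligand, rose from 0.745, 1.77 and 1.02 CPM to 9.94, 11.5 and 12.6 CPM. The receptor *Notch4* rose from 1.03, 1.36 and 0.61 CPM to 2.05, 2.23 and 2.36 CPM, and it did not pass without NPC replicate 1 (log2 fold change 1.09) or without NPC(+) replicate 3 (1.05). Receptors and ligands thus each had members moving up and down, and the 2 that rose were of low level.

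The Wnt pathway gave 10 higher and 8 lower of 33, with a median of 0.15. *Fzd9*, a receptor, fell from 53.7, 72.8 and 60.5 CPM to 1.17, 1.43 and 1.35 CPM, while another receptor, *Fzd10*, rose from 9.34, 12.5 and 11.2 CPM to 29.2, 27.2 and 22.9 CPM. *Sfrp1*, a secreted inhibitor, rose from 6.3, 7.22 and 6.91 CPM to 42.1, 41.4 and 46.3 CPM. *Wif1*, also a secreted inhibitor, fell from 178, 150 and 158 CPM to 77.5, 80.3 and 76.9 CPM. *Axin2*, which the pathway itself turns on, rose from 11.2, 11.6 and 16.9 CPM to 26.9, 33.1 and 33.2 CPM, whereas *Lgr5*, another target, fell from 63.7, 75.5 and 67.5 CPM to 30.4, 31.2 and 26.8 CPM. Receptors, inhibitors and targets thus each had members moving up and down. *Wif1* and *Axin2* were picked out after their values were seen.

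In the FGF pathway 10 of 24 genes were higher and 6 lower, with a median of 0.12. The receptor *Fgfr3* fell from 116, 131 and 125 CPM to 19.6, 20.6 and 16.7 CPM (log2 fold change -2.71 ± 0.35, SE), and *Fgfr2* fell from 49.3, 48.7 and 45.7 CPM to 20.5, 19.4 and 18.5 CPM. *Fgf1*, a ligand, rose from 18.2, 16.9 and 17.5 CPM to 68.7, 62.9 and 71 CPM. *Dusp4*, a phosphatase that the downstream kinase pathway induces, rose from 8.88, 10.5 and 10.4 CPM to 76.3, 77.7 and 70 CPM. EGF pathway genes gave 2 higher (LOO 1 to 2) and 3 lower of 11, with a median of 0.09 (range -0.01 to 0.15). The NPC growth factor receptor *Egfr* fell from 385, 399 and 365 CPM to 156, 154 and 148 CPM, and the neuregulin receptor *Erbb4* fell from 28.2, 35.7 and 29.1 CPM to 4.39, 4.62 and 7.24 CPM. The ligand *Areg* went the other way, from 0.458, 0 and 0 CPM to 6.14, 2.71 and 4.38 CPM. *Lrig1*, which limits *Egfr*, fell, from 157, 242 and 194 CPM to 100, 102 and 90.7 CPM.

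BMP and TGF-beta genes gave 14 higher (40%, LOO 8 to 14) and 7 lower (20%) of 35, with a median of 0.23 (range -0.02 to 0.33). The type II receptor *Tgfbr2* rose from 46.1, 46.6 and 45.7 CPM to 96.8, 103 and 93.7 CPM, and the transducer *Smad3* had a log2 fold change of 0.74 ± 0.19 (SE). *Inhbb*, a subunit of activin, fell from 47.5, 52.5 and 58.7 CPM to 16.4, 14.8 and 14.8 CPM. The common partner *Smad4* fell from 218, 249 and 205 CPM to 145, 149 and 131 CPM. Hedgehog genes gave 1 higher, the coreceptor *Cdon*, and 5 lower (LOO 3 to 4) of 12. *Scube2*, which helps to release the ligand, fell from 8.25, 8.31 and 6.71 CPM to 0, 0.478 and 0.673 CPM, and *Hhip*, a decoy receptor and target, fell from 18, 21.5 and 15.8 CPM to 10.2, 8.13 and 9.93 CPM. *Ptch1*, receptor and target, had -0.49 ± 0.22 (SE) and missed the threshold without any of the 6 libraries in turn (-0.55 to -0.43).

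The insulin-like growth factor axis gave 5 higher and 0 lower of 14, with a median of 0.26. These were *Igf2*, *Irs1*, *Igf2bp2*, *Igfbp3* and *Igfbp5*. *Irs1*, the adaptor of the receptor, rose from 1.49, 2.32 and 1.63 CPM to 9.36, 11.8 and 8.58 CPM. Retinoid genes gave 4 higher and 0 lower of 8. Among them *Fabp5*, which carries lipids and retinoic acid, rose from 180, 143 and 161 CPM to 335, 299 and 310 CPM.

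Guidance genes split. Semaphorins, plexins, netrins, slits and their receptors gave 13 higher and 8 lower (LOO 5 to 7) of 32, and ephrins with Eph receptors gave 6 higher and 4 lower of 16. *Sema3a*, a repellent of axons, fell from 70, 68.8 and 55.5 CPM to 18.7, 23.4 and 16.7 CPM, while *Sema3f* rose from 3.15, 4.23 and 3.05 CPM to 10.2, 9.56 and 10.1 CPM. The receptor *Epha5* fell from 66.3, 74.6 and 64.2 CPM to 8.77, 7.97 and 8.41 CPM (log2 fold change -3.03 ± 0.27, SE), and *Epha4* fell from 50.6, 50.7 and 44.7 CPM to 9.94, 11 and 11.4 CPM. The ligand *Efna5* rose from 2.29, 1.77 and 3.05 CPM to 18.1, 17.2 and 16.8 CPM. *Epha4* and *Epha5* thus fell where *Efna5* rose.

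Secreted peptides, hormones and chemokines gave 10 higher (58.8%) and 4 lower (23.5%) of 17, with a median of 0.92 that becomes 0.22 over genes with at least 10 counts in each library. *Ccl2*, a chemokine that draws monocytes, had at most 3 counts per NPC library and 6.73, 13.7 and 7.91 CPM in NPC(+), a ratio of 74.1 with a 95% counting interval of 28.4 to 275. *Cxcl14*, another chemokine, rose from 0.859, 0.682 and 1.42 CPM to 8.19, 6.21 and 9.26 CPM. *Vegfa*, the growth factor of blood vessels, fell from 734, 810 and 848 CPM to 151, 150 and 157 CPM, and *Bdnf*, a neurotrophin, fell from 24.3, 26 and 21.5 CPM to 6.73, 8.76 and 8.08 CPM. The summed level of the list fell from 2213, 2116 and 2169 CPM to 1096, 1081 and 1092 CPM. Beside *Vegfa*, its most abundant gene, the growth factor *Ptn*, fell from 1247, 1066 and 1088 CPM to 658, 625 and 646 CPM.

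Interferon-stimulated genes gave 6 higher and 2 lower of 17. The class I antigen gene *H2-K1* rose from 0.802, 0.818 and 0.813 CPM to 11.1, 11.8 and 11.8 CPM, and the near-identical exons of *H2-D1*, which also rose, mean that reads may be split between them. Target genes of p53 gave 5 higher and 9 lower of 26, with a median of -0.09 (range -0.17 to 0.03). *Plk2*, a kinase of the stress response, rose from 426, 393 and 381 CPM to 998, 986 and 905 CPM. *Sesn2*, which restrains growth under stress, fell from 229, 254 and 254 CPM to 60, 47.5 and 43.9 CPM.

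Sterol synthesis showed the most uniform rise of the 69 lists. Of 25 genes tested 24 were higher (96%) and 0 lower in the edgeR test, 23 of them by more than 2-fold, with a median log2 fold change of 1.80. *Ggps1*, which makes the isoprenoid used to anchor proteins and not sterols, was the gene that did not pass (0.01 ± 0.09, SE). *Fdps*, which builds farnesyl diphosphate, rose the most, from 8.71, 7.91 and 5.89 CPM to 82.2, 84 and 83.5 CPM (log2 fold change 3.42 ± 0.14, SE, adjusted p = 2.10e-09 by edgeR QL with BH). *Hmgcs1*, at the entry of the pathway, rose from 380, 337 and 331 CPM to 1226, 1318 and 1132 CPM, and *Dhcr7*, at its last step, rose from 73.3, 72.5 and 69.1 CPM to 341, 354 and 342 CPM. The rise therefore ran from the entry to the last step.

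Control genes moved with the enzymes. *Insig1*, which holds the pathway's transcription factor in check, had a log2 fold change of 2.14 ± 0.08 (SE). That factor itself, *Srebf2*, rose less, from 526, 533 and 513 CPM to 818, 843 and 836 CPM. The list summed to 3551, 3421 and 3257 CPM in NPC and to 9931, 10225 and 9340 CPM in NPC(+), and no library of a group stood apart. *Ggps1*, *Insig1* and *Srebf2* were picked out after their values were seen.

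The integrated stress response, in which ATF4 turns on amino acid uptake and synthesis when translation is restrained, showed the opposite. All 29 genes tested were lower and 0 higher in the edgeR test, 22 of them by more than 2-fold, with a median log2 fold change of -1.86, and the list summed to 12944, 12474 and 12287 CPM in NPC against 4640, 4573 and 4400 CPM in NPC(+). *Trib3*, a pseudokinase induced late in the response, fell from 409, 493 and 507 CPM to 14, 15.6 and 17 CPM (log2 fold change -4.90 ± 0.25, SE, adjusted p = 9.98e-09 by edgeR QL with BH). *Chac1*, which breaks down glutathione, fell from 113, 96.1 and 96.5 CPM to 7.31, 8.13 and 7.91 CPM. *Ddit3*, the factor also called CHOP, fell from 202, 174 and 183 CPM to 27.5, 29.3 and 31.3 CPM. *Atf4* RNA itself, whose protein is set mostly by translation, fell less, from 932, 789 and 802 CPM to 535, 498 and 473 CPM.

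The members that feed the cell with amino acids fell too. *Slc7a5*, an importer of large neutral amino acids, fell from 1851, 1903 and 1801 CPM to 374, 396 and 366 CPM. *Asns*, asparagine synthetase, fell from 1017, 916 and 900 CPM to 339, 332 and 335 CPM. *Cth*, which makes cysteine, fell from 171, 154 and 139 CPM to 9.07, 7.97 and 12.3 CPM. *Fgf21*, a hormone induced by the response, had 9.62, 11.2 and 11 CPM in NPC and at most 2 counts in an NPC(+) library, a ratio of 53.3 with a 95% counting interval of 18.1 to 260. *Atf4*, *Asns*, *Chac1* and *Ddit3* were picked out after their values were seen.

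Promoters of these genes were searched after the values were seen, on both strands of the RefSeq windows (GRCm38.p6) of 250 bases before to 50 bases after the start. The CARE letters TGATGNAA are the core of the element bound by ATF4 with C/EBP partners. They were in a window of 9 of 25 integrated stress response genes (36%) and of 5 of 12 cytosolic tRNA synthetases (41.7%). Of all 9106 genes with a window, 233 had them (2.56%). A sterol element spelt TCACNCCAC was in a window of 1 of 18 sterol synthesis genes (5.56%), *Hmgcs1*, and of 124 of all genes (1.36%). It was also in a window of 1 of 24 fatty acid synthesis and storage genes, *Acsl1*. A match is a description of letters and not a site. The windows of 3 stress response genes and of *Hmgcs1* are shown because these lists moved the most, with capitals on the match in either strand. They lie at chr2:152344011-152344310 on the minus strand (*Trib3*), chr6:7693160-7693459 on the minus strand (*Asns*), chr2:119350992-119351291 on the plus strand (*Chac1*) and chr13:119690101-119690400 on the plus strand (*Hmgcs1*).
Trib3: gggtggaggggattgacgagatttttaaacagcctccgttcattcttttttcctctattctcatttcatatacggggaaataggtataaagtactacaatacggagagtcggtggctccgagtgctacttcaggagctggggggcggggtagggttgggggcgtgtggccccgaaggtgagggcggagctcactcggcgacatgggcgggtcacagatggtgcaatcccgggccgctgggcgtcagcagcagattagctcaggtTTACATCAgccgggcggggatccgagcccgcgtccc
Asns: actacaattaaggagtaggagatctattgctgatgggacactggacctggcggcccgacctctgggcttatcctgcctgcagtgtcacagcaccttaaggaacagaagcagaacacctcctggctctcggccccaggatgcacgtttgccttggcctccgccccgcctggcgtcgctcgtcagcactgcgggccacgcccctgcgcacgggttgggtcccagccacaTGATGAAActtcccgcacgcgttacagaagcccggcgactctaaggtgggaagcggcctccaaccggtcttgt
Chac1: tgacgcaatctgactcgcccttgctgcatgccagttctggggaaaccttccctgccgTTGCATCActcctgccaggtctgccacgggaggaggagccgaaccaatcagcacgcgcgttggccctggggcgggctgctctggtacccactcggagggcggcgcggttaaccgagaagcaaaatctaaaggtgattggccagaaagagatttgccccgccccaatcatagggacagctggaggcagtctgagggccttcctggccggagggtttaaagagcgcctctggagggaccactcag
Hmgcs1: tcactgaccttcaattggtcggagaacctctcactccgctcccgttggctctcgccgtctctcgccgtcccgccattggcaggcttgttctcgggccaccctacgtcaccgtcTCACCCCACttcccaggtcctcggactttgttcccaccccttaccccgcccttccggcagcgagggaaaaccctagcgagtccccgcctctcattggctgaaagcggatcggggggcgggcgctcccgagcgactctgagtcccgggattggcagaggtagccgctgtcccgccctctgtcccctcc

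**Figure D4:**
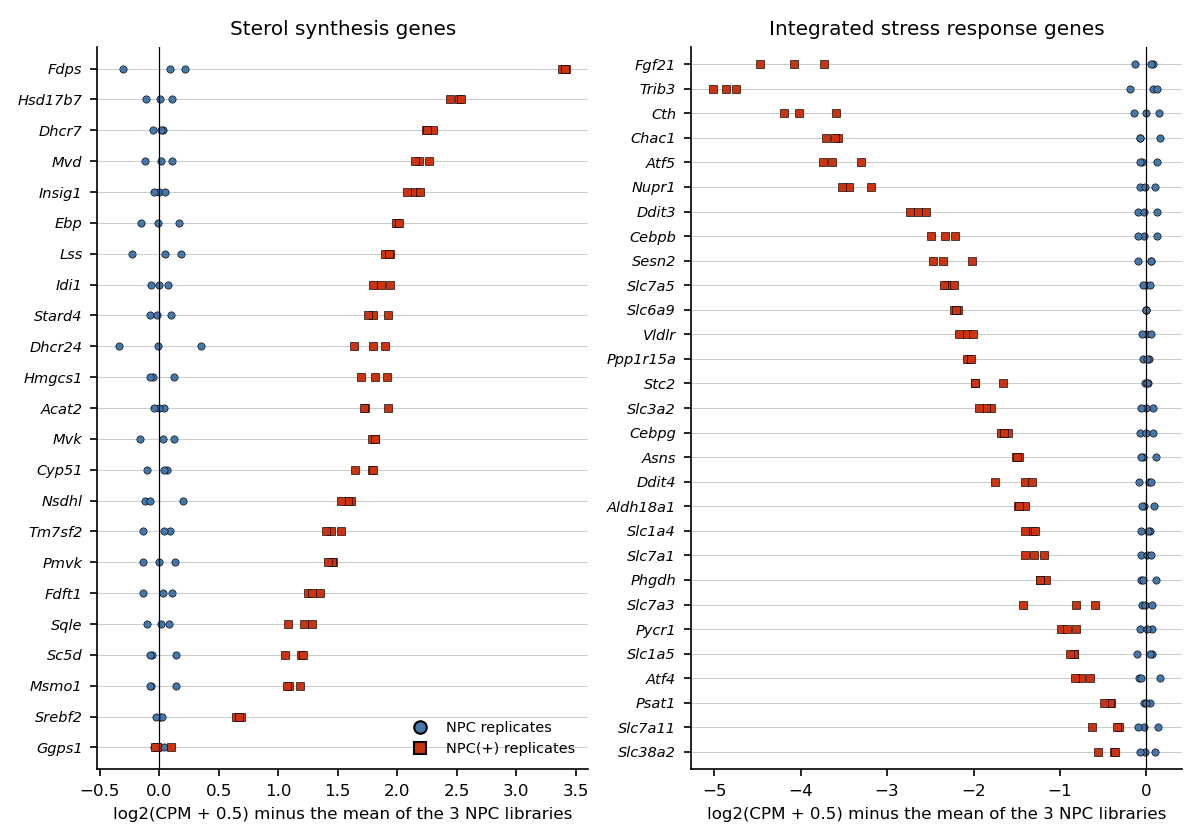
Points give log2(CPM + 0.5) of each library minus the mean of the 3 NPC libraries for genes of the sterol synthesis list and all tested genes of the integrated stress response list, NPC as circles and NPC(+) as squares. In the first list the NPC(+) points lie to the right of the NPC points for all but *Ggps1*, and in the second they lie to the left.

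Cytosolic tRNA synthetases, which load amino acids on tRNA, gave 16 lower (80%) and 2 higher (10%) of 20, with a median of -0.67. *Wars*, for tryptophan, fell from 559, 588 and 575 CPM to 99.4, 105 and 100 CPM (log2 fold change -2.50 ± 0.08, SE). *Yars*, for tyrosine, fell from 703, 717 and 677 CPM to 233, 217 and 212 CPM, and *Eprs*, for glutamate and proline, fell from 2088, 1956 and 1800 CPM to 767, 803 and 771 CPM. *Qars* and *Farsa* were the 2 that rose, at 0.65 ± 0.09 and 0.31 ± 0.08 (SE). Enzymes of serine synthesis and one-carbon metabolism gave 12 lower and 7 higher (LOO 4 to 7) of 25, with a median of -0.11. *Psph*, the last step to serine, fell from 529, 455 and 467 CPM to 112, 114 and 112 CPM, and *Aldh1l2*, a mitochondrial folate enzyme, fell from 384, 415 and 391 CPM to 91, 92.9 and 87.2 CPM. *Tyms*, which makes thymidylate, rose at 0.89 ± 0.08 (SE).

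Fatty acid genes gave different counts for making and burning. Genes of synthesis and storage were higher in 13 (43.3%) and lower in 8 (26.7%) of 30, with a median of 0.28. Their lower share was close to that of all genes. *Acly*, which makes cytosolic acetyl-CoA for lipids and sterols, rose from 302, 336 and 330 CPM to 867, 896 and 818 CPM, and *Fasn*, the synthase, rose from 210, 297 and 283 CPM to 563, 623 and 569 CPM. *Thrsp*, a regulator of lipid synthesis, fell from 104, 104 and 94.7 CPM to 26.9, 24.1 and 26.1 CPM. Genes of oxidation were lower in 17 (81%) and higher in 1 (LOO 0 to 1) of 21, with a median of -0.51. *Echs1*, the hydratase of each turn of oxidation, fell from 267, 219 and 235 CPM to 98.9, 98.8 and 90.4 CPM. *Slc25a20*, which carries acylcarnitine into mitochondria, fell from 85.7, 84.2 and 84.7 CPM to 29.2, 34.3 and 29.1 CPM.

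Glycolysis genes gave 11 higher and 6 lower of 26, with a median of 0.06 (range -0.03 to 0.11), and 1 of them was more than 2-fold higher and 5 lower. *Eno1*, the general enolase, rose from 629, 599 and 602 CPM to 1361, 1368 and 1359 CPM, and *Eno2*, its neuronal isoform, fell from 13.5, 11.9 and 12.4 CPM to 2.63, 2.23 and 5.22 CPM. *Pfkl*, the liver form of phosphofructokinase, rose from 71.6, 66.4 and 67.5 CPM to 128, 129 and 128 CPM, and *Pfkp*, its platelet form, fell from 16.2, 17.2 and 14 CPM to 3.51, 5.1 and 4.71 CPM. Hypoxia response genes gave 8 lower (53.3%) and 2 higher (LOO 1 to 2) of 15, with a median of -0.47. Besides *Vegfa*, *Ero1l*, an oxidase of the endoplasmic reticulum, fell from 264, 244 and 227 CPM to 60.8, 66.3 and 57.9 CPM, and *Pdk1*, which closes the entry to the TCA cycle, fell from 31.8, 37.3 and 36.6 CPM to 12, 11.2 and 9.59 CPM.

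In mitochondria, TCA cycle enzymes gave 7 higher and 11 lower of 28, with a median of -0.04 (range -0.12 to 0.01). *Idh1*, the cytosolic isocitrate dehydrogenase that yields NADPH, rose from 152, 138 and 130 CPM to 368, 388 and 362 CPM, and *Dld*, a shared subunit of dehydrogenase complexes, fell from 471, 416 and 401 CPM to 177, 169 and 166 CPM. Nuclear-encoded respiratory subunits gave 20 higher and 34 lower (45.3%) of 75, with a median of -0.16. *Cox6a2*, the muscle form of a cytochrome oxidase subunit, fell from 37.3, 33.5 and 38.2 CPM to 1.46, 1.27 and 1.68 CPM. *Uqcr11*, a subunit of complex III, rose from 71, 69.5 and 75 CPM to 171, 154 and 169 CPM. Genes encoded in mitochondria gave 3 higher and 0 lower of 10, with *mt-Nd2* at 1.23 ± 0.09, *mt-Nd1* at 0.55 ± 0.10 and *mt-Cytb* at 0.48 ± 0.12 (SE). Their summed level went from 9374, 7936 and 8599 CPM to 11119, 10722 and 11417 CPM, without overlap. The mitochondrial share of counts was 1.295%, 1.166% and 1.269% in NPC and 1.596%, 1.558% and 1.671% in NPC(+). Whether this reflects RNA quality was not tested.

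Redox genes leaned upward, with 14 higher (53.8%) and 7 lower (LOO 4 to 6) of 26 in the glutathione and NRF2 list and a median of 0.26. *Txn1*, thioredoxin, rose from 332, 280 and 318 CPM to 1593, 1532 and 1570 CPM (log2 fold change 2.34 ± 0.11, SE), and *Srxn1*, which repairs peroxiredoxins, rose from 2.41, 1.77 and 2.44 CPM to 10.2, 10.2 and 9.42 CPM. The metal-binding *Mt1* fell from 114, 111 and 122 CPM to 36.6, 30.3 and 36.4 CPM. Unfolded protein response genes gave 11 higher and 5 lower of 22. The chaperone *Hspa5* rose from 734, 632 and 595 CPM to 1173, 1210 and 1151 CPM, whereas *Atf6*, a sensor of the response, fell from 157, 176 and 164 CPM to 52.6, 60.1 and 52.3 CPM and *Sel1l*, of the degradation complex, fell from 229, 250 and 229 CPM to 72.2, 78.1 and 75.1 CPM. A chaperone thus rose where a sensor and a degradation gene fell. Nucleotide synthesis gave 10 higher and 6 lower of 25.

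Solute carriers gave 55 higher and 53 lower of 179, close to the shares over all genes, with a median of 0.04 (range -0.04 to 0.07). *Slc6a2*, the noradrenaline transporter, rose from 0.401, 0.409 and 0 CPM to 15.2, 13.5 and 14.1 CPM. *Slc1a3*, the glutamate transporter of radial glia and astrocytes, fell from 2663, 2512 and 2403 CPM to 1205, 1222 and 1158 CPM. Potassium channel subunits gave 11 higher and 4 lower of 28, with a median of 0.56. *Kcnma1*, a calcium-activated channel, rose from 1.55, 2.59 and 3.05 CPM to 13.7, 11.6 and 14.8 CPM, and *Kcnn4*, another one, fell from 78.4, 89.6 and 81.3 CPM to 19.3, 21.3 and 25.2 CPM.

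Of the proteins stained in the study as neuroepithelial markers, occludin RNA (*Ocln*) had 0 counts in NPC and 1, 0 and 0 in NPC(+), under the minimum for a test. *Tjp1*, of tight junctions, had 71.9, 80.4 and 79.2 CPM in NPC and 87.7, 92.2 and 86.5 CPM in NPC(+). Its groups did not overlap, and with a log2 fold change of 0.21 ± 0.11 (SE) it did not pass, but did so in a fit of only the 6 libraries (0.20). *Prom1*, of the apical membrane, had 1.09, 1.77 and 2.03 CPM in NPC and 0.292, 2.07 and 2.02 CPM in NPC(+), overlapping and not passed, with a fitted value of 0.19 ± 0.55 (SE) whose sign changed among the alternatives (-0.19 to 0.50). *Actc1*, the control locus of the study, had 4, 2 and 2 counts in NPC and 0, 1 and 4 in NPC(+). Genes of tight and epithelial junctions gave 6 higher and 7 lower of 18, with a median of 0.20 (range -0.02 to 0.30). *Jam2*, a junction receptor, fell from 539, 477 and 462 CPM to 226, 239 and 216 CPM, while *Cgnl1*, a junction scaffold, rose from 2.35, 3.41 and 4.06 CPM to 9.65, 8.44 and 9.42 CPM.

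Classical cadherins, which join like cells, gave 7 higher (63.6%) and 1 lower (LOO 0 to 1) of 11, with a median of 0.92. *Cdh2*, the N-cadherin of the neuroepithelium, was picked out after its values were seen and rose from 71.6, 66.8 and 59.9 CPM to 146, 156 and 147 CPM (log2 fold change 1.17 ± 0.26, SE). *Cdh10* rose from 7.9, 8.31 and 5.28 CPM to 26.6, 24.4 and 25.2 CPM. Immunoglobulin-family adhesion genes leaned the other way, with 12 lower (44.4%) and 7 higher of 27 and a median of -0.25. *Ncam1* fell from 488, 563 and 532 CPM to 200, 205 and 226 CPM, *Nrcam* fell from 108, 120 and 108 CPM to 37.7, 39.4 and 33.8 CPM, and *Cadm2* fell from 35.5, 36.8 and 34.3 CPM to 6.73, 6.69 and 6.73 CPM. *Nfasc*, which builds the axon initial segment, rose from 2.92, 3.95 and 2.03 CPM to 21.1, 16.6 and 17.3 CPM. Cadherin and immunoglobulin adhesion thus differed in the direction of most of their called genes.

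Clustered protocadherins, whose combinations give neurons an identity, gave 4 higher and 9 lower of 28, with a median of -0.26 (range -0.37 to 0.07). *Pcdhgb1* had 8.48, 10.4 and 6.71 CPM in NPC and at most 2 counts in an NPC(+) library, a ratio of 45.1 with a 95% counting interval of 15.3 to 220. *Pcdhgc3* rose from 20.6, 27.8 and 26 CPM to 56.4, 58 and 54 CPM. Genes of the gamma cluster share exons, so the split of reads among them is uncertain. *Pcdhb9*, a single-exon gene, rose from 29.8, 31.8 and 30.3 CPM to 66.7, 75.8 and 68.5 CPM. Delta protocadherins gave 2 higher, *Pcdh7* and *Pcdh17*, and 2 lower, *Pcdh10* and *Pcdh19*, of 9. *Pcdh19* fell from 36.7, 36 and 37.6 CPM to 13.2, 15.5 and 17 CPM. Neurexins, neuroligins and other synaptic adhesion genes gave 5 higher and 6 lower of 18, with a median of 0.02 (range -0.06 to 0.18) that becomes -0.02 relative to the chromosome medians. *Nlgn3* fell from 8.08, 6.95 and 8.53 CPM to 0, 0.478 and 1.18 CPM.

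In the matrix, collagens gave 7 higher (31.8%) and 2 lower (9.09%, LOO 1 to 2) of 22, with a median of 0.67. *Col4a1*, of basement membranes, rose from 21, 26.7 and 25.8 CPM to 118, 143 and 122 CPM, and its head-to-head neighbour *Col4a2*, which overlaps it in an exon, rose from 3.04, 5.18 and 8.74 CPM to 17.3, 17.2 and 19.4 CPM. Laminins gave 1 higher (LOO 1 to 2), *Lamb1*, and 1 lower, *Lamb2*, of 5, with a median of 0.06 (range -0.04 to 0.15). Integrins, receptors for matrix, gave 3 higher and 4 lower of 12. The laminin receptor *Itga6* fell from 309, 346 and 313 CPM to 73.7, 81.4 and 71.2 CPM (log2 fold change -2.09 ± 0.09, SE). *Itga8* rose from 0.401, 0.273 and 0.203 CPM to 2.05, 2.23 and 1.68 CPM.

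Matricellular proteins and proteoglycans gave 13 higher and 7 lower of 35, with a median of 0.42. *Sdc2*, a heparan sulphate proteoglycan, rose from 11.9, 9.27 and 9.14 CPM to 113, 112 and 106 CPM (log2 fold change 3.41 ± 0.12, SE). *Tnc*, tenascin-C of the stem cell niche, fell from 838, 967 and 853 CPM to 199, 238 and 205 CPM, and *Ptprz1*, a receptor phosphatase of glial precursors, fell from 856, 907 and 821 CPM to 289, 318 and 279 CPM. Matrix proteases and their inhibitors gave 10 higher and 4 lower of 23, with a median of 0.47. *Mmp14*, a membrane metalloprotease, rose from 1.15, 1.77 and 1.22 CPM to 10.2, 12.4 and 9.76 CPM, and *Mmp11* fell from 24.1, 31.6 and 25.8 CPM to 5.26, 7.97 and 8.92 CPM. Connexins and pannexins gave 3 higher, *Gja5*, *Gjc1* and *Panx1*, and 0 lower of 4, and *Gjc1* rose from 24.7, 25.1 and 22.6 CPM to 70.5, 76.6 and 70.3 CPM. Intermediate filament and S100 genes gave 4 higher and 0 lower of 11, with *S100a10* rising from 70.4, 59.8 and 66 CPM to 272, 230 and 260 CPM.

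Lists of cell types were read next, and their part in the other results was not tested. Radial glia and astrocyte markers gave 6 higher and 9 lower of 24, with a median of 0.10 (range -0.26 to 0.12) that becomes -0.10 relative to the chromosome medians. Their summed level fell from 8156, 8029 and 7735 CPM to 4793, 4876 and 4702 CPM, with *Slc1a3* the most abundant. *Ttyh1*, a membrane protein of radial glia, fell from 151, 133 and 132 CPM to 21.1, 19.3 and 19.7 CPM, and *Hopx*, of outer radial glia and quiescent stem cells, rose from 2.58, 1.23 and 1.22 CPM to 6.73, 7.65 and 7.24 CPM. *Gfap*, the filament of astrocytes, had a log2 fold change of 0.43 ± 0.28 (SE) and did not pass, although it passed without NPC replicate 1 (0.77).

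Neuron markers gave 6 higher and 6 lower of 25, and summed to 1562, 1596 and 1605 CPM in NPC and 1145, 1146 and 1158 CPM in NPC(+), with *Map2* the most abundant and *Slc17a6* and *Slc32a1* at 0. Most of the fall in the sum came from *Ncam1*, also in this list, which went from 488, 563 and 532 CPM to 200, 205 and 226 CPM. *Tubb3*, the neuronal tubulin stained in the study, measured 5.84, 4.5 and 5.28 CPM in NPC and 7.9, 7.01 and 7.07 CPM in NPC(+). Its groups did not overlap, and it did not pass (log2 fold change 0.44 ± 0.25, SE, adjusted p = 0.155 by edgeR QL with BH) but did so in a fit of only the 6 libraries (0.43). *Gad1*, which makes GABA, rose from 4.01, 4.36 and 3.05 CPM to 7.9, 8.13 and 9.42 CPM, and *Mapt*, the tau protein of axons, fell from 38, 34.5 and 37.8 CPM to 19.3, 17.5 and 18.3 CPM. Oligodendrocyte lineage markers gave 5 lower and 0 higher of 8, with a median of -0.56, and summed to 2690, 2826 and 2696 CPM in NPC and 2063, 2072 and 1930 CPM in NPC(+). Their most abundant gene was *Olig1*, while *Sox10* and *Cldn11*, which define the lineage, were at 0 in the 6 libraries. *Cnp*, an enzyme of myelin, fell from 70.8, 70.5 and 66 CPM to 43, 43.8 and 42.4 CPM.

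Lists of cells that a neural culture should lack were summed too. That of endoderm and mesoderm had the highest sum of them and rose without overlap. Endothelial markers summed to 2.63, 3 and 1.02 CPM in NPC and 6.73, 5.74 and 4.38 CPM in NPC(+), higher with no overlap, with *Pecam1* the most abundant, itself at 0 in NPC replicate 3, and *Cdh5*, *Tie1* and *Erg* at 0, and none of the 12 could be tested. Microglia and blood markers summed to 2.75, 2.86 and 4.47 CPM in NPC and 2.34, 3.19 and 3.53 CPM in NPC(+), with *Cd68* the most abundant and *Cx3cr1*, *Tyrobp*, *Hba-a1*, *Hbb-bs* and *Cd3e* at 0, and 1 was tested and did not pass. Mesenchyme and smooth muscle markers summed to 33.4, 36.4 and 32.1 CPM in NPC and 36, 40.3 and 50.3 CPM in NPC(+), with *Col3a1* the most abundant and *Fap* at 0. None of the 5 tested passed in the edgeR test, and their median of -0.01 (range -0.11 to 0.21) becomes 0.05 relative to the chromosome medians and also changes sign under upper-quartile scaling. Endoderm and mesoderm markers summed to 40.5, 52.1 and 48 CPM in NPC and 70.2, 82.4 and 78.1 CPM in NPC(+), with *Foxf1* the most abundant and *Afp*, *Ttr*, *Hnf4a*, *Mesp1*, *Msgn1* and *Myod1* among those at 0. *Foxf1* rose from 14, 20 and 23.2 CPM to 34.5, 38.9 and 37.2 CPM and was 1 of 2 higher (LOO 1 to 2) of 3 tested. The other was *Foxa2*, with a log2 fold change of 0.91 to 1.18 over the alternatives. Its call was lost in 4 of the fits that left out a library.

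Pluripotency genes gave 2 higher (LOO 1 to 2) and 1 lower of 7 and summed to 62.8, 69.9 and 79 CPM in NPC and 65.2, 71.1 and 65.1 CPM in NPC(+), with none of the 25 at 0. By the mean over the 6 libraries *Klf4* was the most abundant, but not in NPC(+), where *Klf2* of the same list lay above it. Germline genes gave 1 lower (LOO 1 to 2), *Piwil2*, and 0 higher of 3, and summed to 12, 10.6 and 13.6 CPM in NPC and 6.43, 7.65 and 6.56 CPM in NPC(+). Their most abundant gene was *Brdt*, and *Tdrd9*, *Slc25a31* and *Magea5* were at 0.

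In the cell cycle, S phase genes gave 28 higher (62.2%) and 4 lower (8.89%) of 45, with a median of 0.49. *Ccne2*, the cyclin of S phase entry, rose from 15.1, 12.5 and 15.6 CPM to 45, 46.7 and 41.9 CPM, and *Ung*, a repair enzyme of replication, rose from 22.2, 21.7 and 22.8 CPM to 66.7, 59.4 and 65.8 CPM. *Pcna*, the sliding clamp, rose from 172, 141 and 139 CPM to 218, 225 and 209 CPM. Among those lower was *Mcm2*, a helicase subunit, at -0.31 ± 0.09 (SE). Mitosis genes gave 17 higher and 14 lower of 52, with a median of 0.01 (range -0.07 to 0.08) that becomes -0.03 relative to the chromosome medians. *Ccnb2*, a mitotic cyclin, fell from 26, 21.9 and 22.1 CPM to 3.22, 3.03 and 2.36 CPM, and *Anp32e*, a histone chaperone, rose from 462, 455 and 459 CPM to 1119, 1035 and 1123 CPM. *Mki67*, the proliferation marker, rose from 100, 109 and 106 CPM to 170, 164 and 178 CPM, and with *Pcna* it was picked out after its values were seen.

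D cyclins, their kinases and the inhibitors gave 5 higher (LOO 3 to 4) and 5 lower of 15. The 3 inhibitors of the Cdkn1 family fell the most. *Cdkn1a* fell from 314, 312 and 310 CPM to 67.9, 70.3 and 64.6 CPM, *Cdkn1b* from 19.6, 14.9 and 18.7 CPM to 4.68, 5.26 and 7.24 CPM, and *Cdkn1c* from 29.3, 25.8 and 25.2 CPM to 0.585, 1.27 and 0.673 CPM. *Cdkn2b*, an inhibitor of another family, had -0.36 ± 0.12 (SE). *Ccnd1*, the cyclin that drives entry into the cycle, rose from 116, 107 and 93.3 CPM to 220, 199 and 216 CPM. *Cdk6*, its kinase, fell from 137, 147 and 149 CPM to 81.6, 78.5 and 91 CPM, and *Cdk4* rose by little, at 0.25 ± 0.07 (SE). *Cdk4* lies on chromosome 10, where the median gene had a log2 fold change of 0.23. Its lowest value over the alternatives was 0.02, and its call was lost with no filter beyond 1 count.

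DNA methylation genes gave 4 higher and 6 lower of 18. *Uhrf1*, which brings the maintenance enzyme to replicated DNA, rose from 59.9, 69.2 and 68.9 CPM to 180, 188 and 176 CPM, and that enzyme, *Dnmt1*, rose from 184, 226 and 207 CPM to 329, 367 and 308 CPM. *Tet2*, which oxidises methylated cytosine, fell from 43.8, 55.9 and 59.5 CPM to 19.9, 25.5 and 36 CPM, and *Mbd2*, a reader of methylated DNA, fell from 87.8, 96.5 and 86.4 CPM to 29, 29.3 and 31.5 CPM. Polycomb and H3K9 methylation genes gave 9 higher and 11 lower of 40. *Setdb1*, a writer of H3K9 methylation on chromosome 3, rose from 106, 121 and 107 CPM to 323, 336 and 315 CPM. *Ezh2*, the Polycomb methyltransferase picked out after its values were seen, had 0.33 ± 0.08 (SE).

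Imprinted genes, expressed from a single parental copy, gave 7 higher and 4 lower (LOO 2 to 3) of 17, with a median of 0.06 (range -0.02 to 0.13). Their summed level rose from 911, 899 and 881 CPM to 1804, 1759 and 1775 CPM, most of it from *Mest* and *Nnat*. *Mest*, the most abundant, rose from 143, 135 and 142 CPM to 660, 634 and 605 CPM and overlaps *Copg2* on the other strand. *Ndn* fell from 3.38, 2.59 and 2.44 CPM to 0.877, 0.797 and 0.337 CPM. Cytosolic ribosomal proteins gave 10 higher (13.2%, LOO 5 to 10) and 30 lower (39.5%) of 76, with a median of -0.14, and none of them by more than 2-fold. Heat shock and chaperone genes gave 11 higher (91.7%) and 0 lower of 12 in the edgeR test, with a median of 0.71. *Bag3*, a partner of HSP70, rose from 1.43, 1.23 and 1.42 CPM to 17.8, 22.1 and 21 CPM, and the small heat shock protein *Cryab* rose from 1.37, 2.18 and 1.63 CPM to 13.2, 8.6 and 12.3 CPM and overlaps Hspb2.

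The change also varied by chromosome. On chromosome 16 the median log2 fold change was -0.36 over 369 genes tested, with 9.76% higher and 54.2% lower, and on chromosome 12 it was -0.23 over 411, with 15.8% higher and 44% lower. Chromosome 10 lay at 0.23 over 566 genes, with 44.7% higher and 20.1% lower, and chromosome 3 at 0.15 over 629, with 41.3% higher and 26.2% lower. Chromosomes 13 and 14 lay at 0.21 and 0.18. Relative to the mean of NPC, over genes of at least 20 CPM, chromosome 16 stood at -0.38, -0.36 and -0.42 in NPC(+) replicates 1 to 3, chromosome 12 at -0.23, -0.24 and -0.28 and chromosome 10 at 0.18, 0.21 and 0.17, so the 3 replicates shared the shift. In NPC replicates 1 to 3 chromosome 16 stood at 0.00, 0.00 and -0.01. Of the genes named above, those on chromosome 16 were *Olig2*, *Jam2* and *Cadm2*, which fell by more than its median, *Olig1*, which fell by less, and *Snai2* and *Igf2bp2*, which rose. On chromosome 12, *Ckb*, *Wars*, *Nrcam*, *Dld*, *Sel1l* and *Sox11* fell by more than the median, and *Trim9* and *Lamb1* rose. The call of *Sox11* was lost without NPC(+) replicate 1 (-0.55). With log2 fold changes taken relative to the chromosome medians, 1001 genes were more than 2-fold higher and 796 lower, of which 963 and 727 were also among those counted without this step. On chromosome 3, *Fdps*, *S100a11*, *S100a10*, *Zfp687*, *Setdb1*, *Gja5* and *Cym* rose by more than its median. They lie in 1 stretch of it, between positions 89093588 and 107221732. Other named genes of that chromosome are not listed here. A change of this stretch cannot be told apart from separate changes of these genes. The source of the shifts was not tested.

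**Figure D5:**
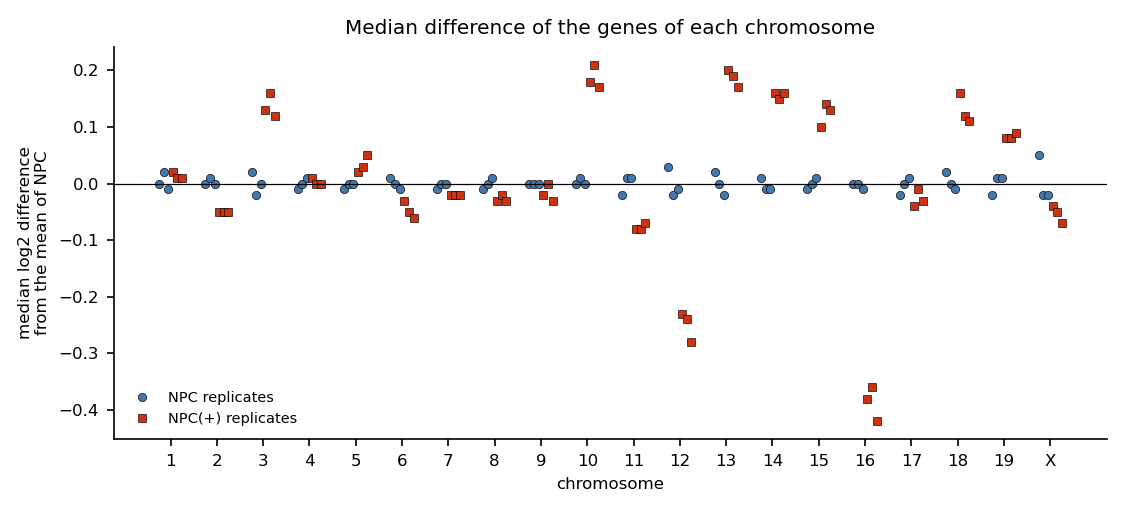
Points give, for chromosomes 1 to 19 and X, the median log2 difference from the NPC mean in each of the 6 libraries, over genes of at least 20 CPM. The NPC points lie near 0, and the NPC(+) points of a chromosome lie together, lowest on chromosomes 16 and 12 and highest on chromosomes 10 and 13.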

How the data were processed

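Counts were used as deposited by the authors, a table of integer counts per gene. Per the submitters' processing notes, STAR 2.6, RSEM 1.1.14 and mm10 were used, and the role of each is not stated. Whether the integers are rounded estimates from RSEM is not stated either. Floors and counting intervals treat them as counts of reads. The strand setting and the gene annotation are not given in the sources used here. The table held 45706 genes, of which 563 without a symbol held 0.124% of the counts. Positions, biotypes and exon overlaps came from GENCODE M21 with bedtools 2.31.1. Only overlaps with genes that had a count in the 6 libraries were kept.

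A gene was tested when enough NPC or NPC(+) libraries passed edgeR's filter at a minimum count of 10. Libraries were scaled by TMM, and the quasi-likelihood test of edgeR 4.0.16 (limma 3.58.1, R 4.3.3) was fitted over all 12 libraries with a prior count of 0.125, with Benjamini-Hochberg adjustment over all genes tested. A call needed an adjusted p under 0.1 and a p under 0.05. The floor was 3 counts per library, and log2 CPM for correlations used a prior of 2. Tables and figures were made in Python 3.11.15 with pandas 2.3.3, scipy 1.17.1 and matplotlib 3.10.9. The code was tested on simulated data.

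Members and lists were chosen with earlier results of these data known. Genes named are those of the design, the steepest rises and falls of the table (by log2 among non-overlapping genes, and by CPM, both among genes called more than 2-fold different), up to 3 of each direction per list, every called gene of a direction where a list had 5 or fewer, and some said in the text to be picked out after their values were seen. Others appear only as the most abundant gene of a list, as a marker at 0, as a promoter match or as an exon overlap. The alternatives were DESeq2 1.42.0, other filters and scalings, thinning every library to 3407066 counts, a fit of only the 6 libraries, a replicate block, values relative to chromosome medians and leaving out each library in turn.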

Additional observations from a re-analysis of the deposited data

How the results depend on the processing

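The counts of genes held within 1.5 times in 93 of 102 values over 17 alternatives, and the 9 that moved came from changing which genes were tested. With at least 10 counts in each library, 682 genes were more than 2-fold higher, and 99 were more than 4-fold higher and 74 lower. With the filter over the 4 groups, 658 were more than 4-fold higher and 327 lower. With no filter beyond 1 count, 1642 were more than 2-fold higher and 1197 lower, and 800 were more than 4-fold higher and 417 lower. Fewer or more weakly expressed genes tested account for these by construction. The balance of all calls turned with the filter over the 4 groups, at 3676 higher and 3856 lower. It also turned with no filter beyond 1 count, at 3436 higher and 3844 lower.

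Leaving out each library in turn gave 3245 to 3386 genes higher and 2962 to 3121 lower, 1051 to 1097 more than 2-fold higher and 769 to 806 lower, and 308 to 323 more than 4-fold higher and 187 to 203 lower. The log2 fold change of Sox1 ranged from 1.92 to 2.13 over all alternatives.

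With the replicate number as a replicate block, 3606 genes were higher and 3275 lower, 1093 and 788 by more than 2-fold and 313 and 186 by more than 4-fold. Residuals of libraries with the same replicate number correlated at 0.0594, 0.0171 and 0.0614 between the groups, with a mean of 0.046 against -0.023 for other pairs.

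Of the 396 genes tested that the naming rule picked, not all of which appear in the text, 389 passed. Of these, 350 lost their call in none of the alternatives that tested them. Some were not tested in all 17, such as Hoxa10 with 16 and Six3 with 15. The alternative relative to chromosome medians kept the p values of the main fit. A call could be lost there only by a change of sign, so keeping it is little evidence. Relative to the chromosome median the log2 fold change of Olig1 became 0.07 and that of Adamts1 0.04, since the median of chromosome 16 is subtracted. For Cdk4 (0.25), on chromosome 10 with a median of 0.23, the lowest value over the alternatives was 0.02. Vim and Hes5 passed in a fit of only the 6 libraries, and the cause was not tested.

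The lists depended on these choices more than the counts over all genes did. List medians moved by more than the spread between replicates in 244 of 1154 values, and 19 of 68 medians changed sign in at least 1 alternative, as their ranges in the text show. The median of the BMP and TGF-beta list became -0.02 with every library thinned, that of the nuclear receptors 0.14 without NPC replicate 3, and that of the neuropeptides, hormones and chemokines 0.22 with at least 10 counts in each library. List counts moved by more than 1.5 times in 120 of 2308 values. With a library left out, 22 of 136 list counts moved so. The lower genes of the neural crest list went from 2 to 0 without NPC(+) replicate 1 or 3, the higher genes of regional patterning from 4 to 2 without NPC(+) replicate 2, the lower Hedgehog genes from 5 to 3 without NPC replicate 2 or NPC(+) replicate 2, and the lower imprinted genes from 4 to 2 without NPC replicate 1 or NPC(+) replicate 2 or 3. Of 6645 values of single genes, 147 were weaker, 10 stronger and 2 reversed. The sterol synthesis median stayed between 1.67 and 1.83, and that of the integrated stress response between -1.95 and -1.75.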
